A study of Danio rerio with 40 samples.

Results

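The promoter of *dnmt1* was examined at 26 CpG sites in the gonads of 40 zebrafish. The sites are those of the *dnmt1* amplicon, which covers chromosome 3 from 54352441 to 54352912 (GRCz11, minus strand), and they make up 26 of the 99 CpG sites that the study targeted in 6 genes. The amplicon reaches from -456 to 16 bases from the transcription start, by the study's list of amplicons, and all 26 sites lie before the start. In Methylation Bisulfite Sequencing (MBS), the assay used, bisulfite turns unmethylated cytosines into bases that PCR and sequencing report as thymines, and the level of a site is the percentage of its reads that still show a cytosine.

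All fish were of the AB strain, came from a single family (the study's text numbers it differently in its Results and its Methods) and were 90 days old, and each group held 10 fish. Testes and ovaries came from fish confined at 66 fish/L between 18 and 45 days post fertilization (dpf) and then kept below 16 fish/L, and testes and ovaries of control fish came from tanks that stayed at 9 fish/L. Whole gonads were used, so each level is an average over germ cells and somatic cells, and the make-up of a gonad was not checked, since expression of cell type markers was not analysed here. The mean methylation of *cyp19a1a*, *hsd11b2*, *hsd17b1* and *cyp11c1* was higher in 20 of 20 testes than in any ovary, so no fish went against its sex label. The tank of each fish is not given in the sources used here, so tank and density cannot be told apart. The comparisons ask whether a past period of crowding left a trace in the methylation of the gonads and whether the sexes differ.

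*Dnmt1* encodes the maintenance DNA methyltransferase of vertebrates. The enzyme follows the replication fork, recognises CpG sites that carry a methyl group on the old strand alone and copies the mark onto the new strand, so that a methylation pattern survives cell division. Promoters that are rich in CpG sites and belong to genes active in dividing cells are usually free of methylation.

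The primers are shown because they set which molecules could be counted. Both are written 5′ to 3′ as they bind converted DNA, on chromosome 3, at 54352884 to 54352912 for the forward primer and at 54352441 to 54352465 for the reverse primer. Neither holds a CpG, the forward primer holds 0 cytosines and the reverse primer 0 guanines. The files, whose calls are in CpG context, list 10 positions inside the primers. The deepest of them is 54352895, in the forward primer, with a median coverage of 65.5 reads. The primers may thus stand over CpG sites. Which TG or CA does so was not examined, since the genome sequence of this build was not used here. Whether the primers favour unmethylated molecules was not tested.
forward: aaatttatgggtaaatatgtatttttgag
reverse: aaatcttaataaacatttcaaattc

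Each of the 26 sites was covered in each of the 40 fish, which gave 1040 values. Median coverage of a site was between 9502 and 9538.5 reads, and the coverage of a single site in a single fish lay between 610 and 30018 reads. The files list 58 positions inside the amplicon, but the 26 sites hold 99.9% of the reads, and the other 32 positions had a median coverage of at most 65.5 reads. Coverage differed far more between fish than between sites. The median over sites was 613 to 29469.5 reads in testes at 66 fish/L, 1106 to 19925 reads in testes at 9 fish/L, 2995.5 to 30005 reads in ovaries at 66 fish/L and 2490 to 29041 reads in ovaries at 9 fish/L. A count of 0 allows up to 3 reads of the total, which is 0.0100% in the deepest fish and 0.489% in the shallowest, the testis G10 at 66 fish/L. That testis gave 6 of the 8 values at 0, and the other 2 came from the testis G24 and the ovary G17 at 9 fish/L, whose coverage allows up to 0.271% and 0.120%. The reads are PCR copies without molecular identifiers, so limits and intervals on reads cover counting error only.

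Methylation of the *dnmt1* promoter was low at every site in both sexes and at both densities. Of the 260 site values in each group, the median was 0.433% in testes at 66 fish/L, 0.342% in testes at 9 fish/L, 0.220% in ovaries at 66 fish/L and 0.191% in ovaries at 9 fish/L. Only 73 of the 1040 values reached 1%, and 9 reached 5%. The highest value was 15.9%, in an ovary at 9 fish/L. The plot of site values along the amplicon shows a continuous band of low values, with single points far above it in ovaries.

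**Figure D1:**
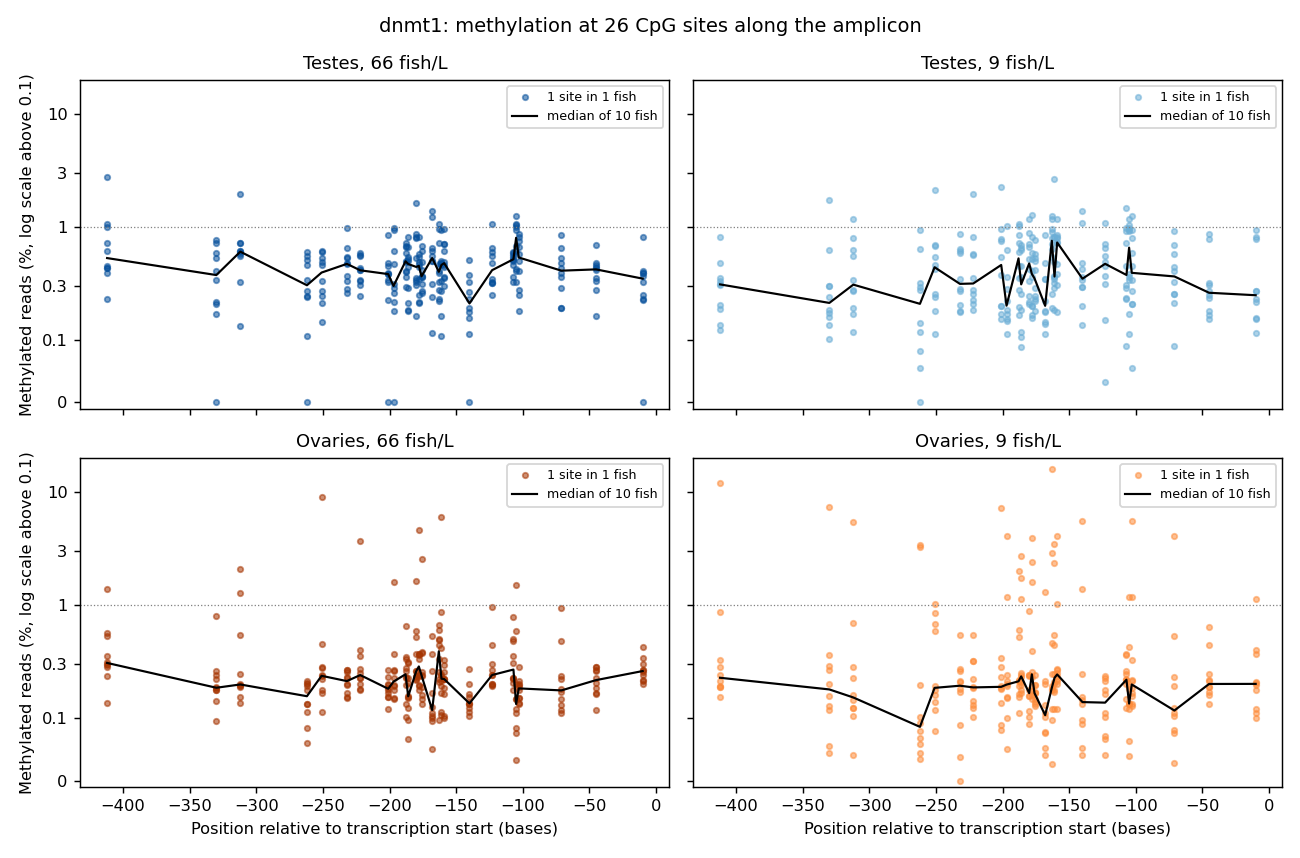
Methylation at the 26 CpG sites of *dnmt1* against the position of the site relative to the transcription start in bases, with 1 panel per group, 1 point per site and fish, and a line for the median of 10 fish. The vertical axis gives the percentage of methylated reads on a scale that is logarithmic above 0.1, and the dotted line marks 1%. Values of testes end at 2.77%, while ovaries hold points up to 15.9%.

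The mean and the median over the 26 sites of a fish described different features of the promoter. The mean level was 0.361 to 0.583% in testes at 66 fish/L, with a median over fish of 0.491%. It was 0.243 to 0.728% in testes at 9 fish/L, with a median of 0.487%. In ovaries it was 0.188 to 0.758% at 66 fish/L, with a median of 0.359%, and 0.159 to 0.922% at 9 fish/L, with a median of 0.617%. By the mean, the 4 groups overlapped and ovaries spanned a wider range than testes. The median level of a fish, which does not move with a few high sites, was 0.332 to 0.553% in testes at 66 fish/L and 0.212 to 0.510% in testes at 9 fish/L. It was 0.178 to 0.341% in ovaries at 66 fish/L and 0.144 to 0.374% in ovaries at 9 fish/L. By the median, most testes lay above the ovaries.

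**Figure D2:**
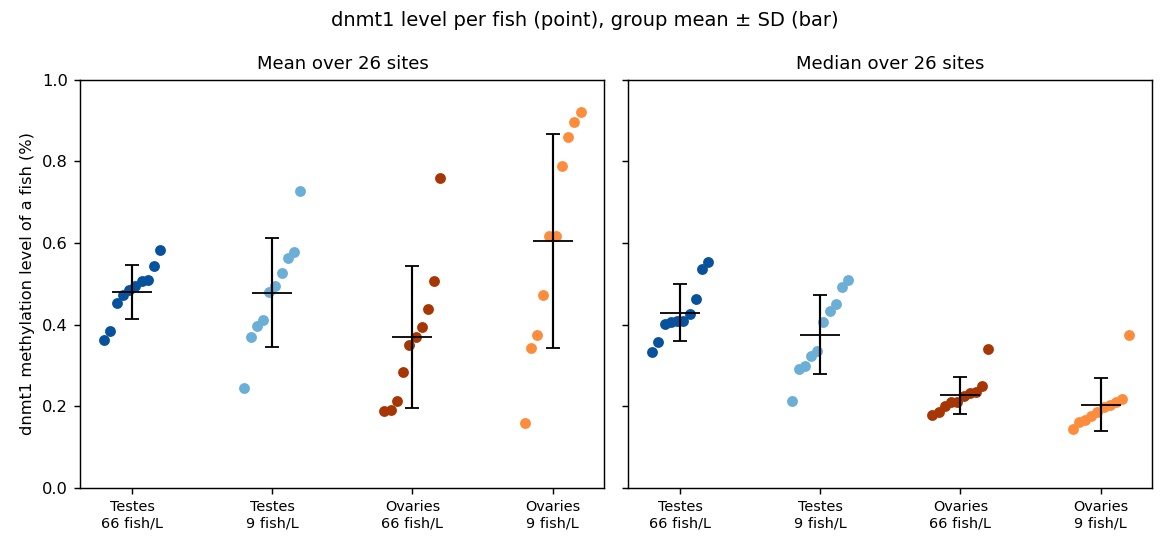
Level of *dnmt1* methylation per fish in percent, as the mean (left panel) and the median (right panel) over 26 CpG sites. Each point is a fish, and bars give the group mean ± SD of 10 fish. In the left panel the groups overlap, and in the right panel 13 of 20 testes lie above all 20 ovaries.

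In ovaries the mean level was lower after 66 fish/L, but the difference did not pass the test once all 6 genes were taken into account. It was 0.369 ± 0.174% at 66 fish/L and 0.605 ± 0.263% at 9 fish/L (SD, n = 10 each), which is -0.236 percentage points with a standard error of 0.0997. After crowding 9 of 10 ovaries had a level under the control mean, and the ranges overlapped. The exact permutation test, two-sided and with all 184756 ways to divide 20 fish, gave p = 0.0315, and p = 0.189 with Benjamini-Hochberg adjustment over the 6 genes. Leaving out 1 fish decided the call: without the ovary G6 at 9 fish/L, the fish with the lowest mean level, the difference was -0.285 and the adjusted p of the exact permutation test was 0.0466, while it was 0.356 without the ovary G5 at 9 fish/L. The median level averaged 0.226 ± 0.0460% in ovaries at 66 fish/L, against 0.203 ± 0.0645% in those at 9 fish/L. These differed by 0.0227 percentage points, which did not pass the test (p = 0.399 and adjusted p = 0.733, exact permutation).

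The mean in ovaries at 66 fish/L was lower together with fewer high site values. At 66 fish/L the mean over fish was lower at 17 of the 26 sites, but the median over fish was higher at 19 of 26. When the values of 1% or more were left out of each fish, a choice made after the values had been seen, the difference between ovaries at 66 and at 9 fish/L was 0.0416 percentage points. This filter takes out the highest values by construction, more of them from ovaries at 9 fish/L, so no test was read from it. Single sites were tested in the same way, with adjustment over the 99 sites of the 6 amplicons. In ovaries 0 of the 26 *dnmt1* sites were called (adjusted p below 0.05) by this exact permutation test, against 0% of all 99 sites, and 3 of 26 had an unadjusted p below 0.05, against 5.05% of all sites. A quasi-binomial model per site also called 0, against 0 of all 99 sites. Fisher's exact test on reads pooled over fish, which takes PCR copies as independent, called 22, against 87 of all 99.

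The differences at these 3 sites had different signs. At the site -123 (54352579; positions are counted in bases from the transcription start) ovaries had 0.192, 0.239 and 0.956% (lowest, median, highest) at 66 fish/L and 0.0401, 0.136 and 0.236% at 9 fish/L. All 10 ovaries at 66 fish/L were above the median of those at 9 fish/L, yet the ranges overlapped and the exact permutation test gave p = 0.00171 and an adjusted p of 0.169. At -176 (54352632) the median was 0.238% at 66 fish/L and 0.165% at 9 fish/L, with a highest value of 2.54% at 66 fish/L. At -186 (54352642) the median was 0.155% at 66 fish/L and 0.232% at 9 fish/L, with a highest value of 2.72% at 9 fish/L. The largest difference of means, -1.65 percentage points at -163 (54352619), rested on the ovary G5 at 9 fish/L with 15.9%, since the medians there were 0.387% at 66 fish/L and 0.184% at 9 fish/L (exact permutation test, p = 0.468).

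In testes no difference between densities passed the test. The mean level was 0.479 ± 0.0671% at 66 fish/L and 0.478 ± 0.133% at 9 fish/L, a difference of 0.000964 with a standard error of 0.0472 (SD, n = 10 each, exact permutation test, p = 0.985, adjusted p = 0.985). The sign of so small a difference changed with the fish left out, between -0.0252 and 0.0287. The median level was 0.429 ± 0.0705% at 66 fish/L and 0.376 ± 0.0977% at 9 fish/L, and 8 of 10 testes at 66 fish/L were above the mean of those at 9 fish/L. The difference of 0.0534 percentage points did not pass the test (exact permutation test, p = 0.177, adjusted p = 0.611). Of the 26 sites 0 were called by the exact permutation test, against 0% of all 99 sites, and 3 had an unadjusted p below 0.05, against 4.04% of all sites. The quasi-binomial model called 0, against 0 of all 99 sites, and Fisher's exact test on pooled reads called 17, against 61 of all 99.

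Among those sites, the site farthest from the start, -412 (54352868), had 0.230, 0.528 and 2.77% in testes at 66 fish/L and 0.122, 0.309 and 0.814% at 9 fish/L (exact permutation test, p = 0.0156, adjusted p = 0.771). Its highest value belongs to the shallow testis G10, where it rests on 17 of 613 reads (95% Wilson interval 1.74 to 4.40%). At -168 (54352624) the median was 0.528% at 66 fish/L and 0.199% at 9 fish/L, and at -140 (54352596) it was 0.210% at 66 fish/L and 0.347% at 9 fish/L. The differences at these 3 sites had both signs, none passed the adjusted test, and the ranges of both densities overlapped at all 26.

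Whether the effect of density differed between the sexes was tested directly. The difference between densities in testes minus that in ovaries was 0.237 percentage points for the mean level (permutation of residuals with 100000 resamples, p = 0.0344, adjusted p = 0.207). Without the ovary G6 at 9 fish/L it was 0.286 with an adjusted p of 0.0395 by the same test. Without the ovary G5 at 9 fish/L it was 0.202 with an adjusted p of 0.375. With 1 fish left out, the result stayed uncalled in 39 of 40 cases. Without values of 1% or more the interaction was -0.00198, with no test read from it. For the median level it was 0.0307 (p = 0.495, adjusted p = 0.766).

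The sexes differed in the typical measured level of the promoter, and testes were higher. Cytosines that escape conversion also count as methylated, and their part in this difference was not tested. The median level was 0.402 ± 0.0873% in testes and 0.215 ± 0.0557% in ovaries (SD, n = 20 each), so that it was 0.187 percentage points higher in testes, with a standard error of 0.0232. The ovarian mean was exceeded by 19 of 20 testes, and the highest ovary by 13. A permutation test that exchanged sex within density gave p = 1e-05, the smallest that 100000 resamples can give, before and after adjustment over the 6 genes. The difference was found at both densities, with 0.203 percentage points at 66 fish/L (exact permutation test, p = 2.17e-05), where 9 of 10 testes were above all ovaries, and 0.172 at 9 fish/L (exact permutation test, p = 0.000433), where 5 of 10 were. The mean level did not show it: 0.479 ± 0.103% in testes and 0.487 ± 0.248% in ovaries, with a testis-minus-ovary value of -0.00790 (p = 0.892, adjusted p = 0.892). Without the highest site of each fish the mean was 0.115 percentage points higher in testes, and without values of 1% or more it was 0.196 higher. Both settings were chosen with the values known and take out more of the summed level in ovaries, so they are given as values with no test.

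In site medians, the sex difference had the same direction along the whole amplicon. The median over fish was higher in testes at 26 of 26 sites, over all fish and at each density. In the other 5 amplicons it was higher at 47 of the 73 sites at each density and at 48 over all fish. By gene, over all fish, it was higher in testes at 0 of 24 sites in *dmrt1*, 15 of 15 in *cyp19a1a* and 9 of 9 in *hsd11b2*. In *hsd17b1* it was higher at 6 of 6 and in *cyp11c1* at 18 of 19. Over all fish, a higher median at all sites was thus also found in 3 other genes. Site medians were between 0.268 and 0.797% in testes and between 0.110 and 0.286% in ovaries. Neighbouring sites share reads and fish, so the 26 sites are not independent of each other. In means, testes were higher at 14 of 26 sites, at 21 of 26 at 66 fish/L and at 12 of 26 at 9 fish/L.

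**Figure D3:**
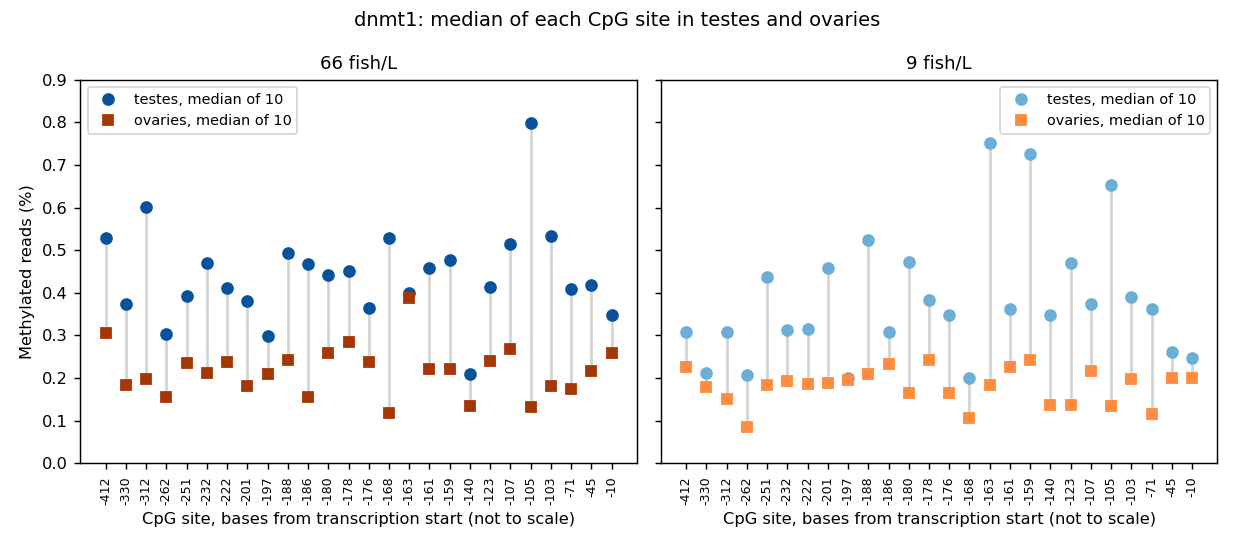
Median methylation of each CpG site of *dnmt1* in percent in testes (circles) and ovaries (squares), over 10 fish each, at 66 fish/L (left) and 9 fish/L (right). Sites stand in order from the farthest to the nearest to the transcription start and are not spaced to scale. At each site and density the circle lies above the square, by little at -163 at 66 fish/L and at -197 at 9 fish/L. The site -197 was picked after its values were seen.

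Of the 26 *dnmt1* sites, 6 passed the test between testes and ovaries (adjusted p below 0.05 over 99 sites), all higher in testes. Of all 99 sites 77.8% were called, and 53.5% were called as higher in testes. The other 5 genes had 89.5 to 100% of their sites called, so *dnmt1* had the lowest share of sites called between the sexes. At 66 fish/L 10 of the 26 sites were called, against 78.8% of all sites (54.5% as higher in testes), and at 9 fish/L 7 were called, against 76.8% (52.5% as higher), again all higher in testes. The quasi-binomial model called 7 sites over both densities, all higher in testes, against 77 of all 99 sites, and 5 of the 7 are among the 6. The ranges of testes and ovaries overlapped at each of the 26 sites.

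The smallest p belonged to -232 (54352688). It had 0.176, 0.417 and 0.979% (lowest, median, highest) in testes and 0, 0.202 and 0.537% in ovaries, and 18 of 20 testes were above the median of the ovaries (permutation test, p = 3e-05, adjusted p = 4.43e-05). It is also one of only 2 sites at which no fish reached 1%. The widest gap among the sites called was at -105 (54352561), with 0.111, 0.797 and 1.26% in testes and 0.0334, 0.133 and 1.496% in ovaries. The means there differed by 0.426 percentage points (permutation test, adjusted p = 0.00188), and 19 of 20 testes were above the median of the ovaries.

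The sites around -105 show how far neighbours differed. At -107 (54352563), 2 bases away, the median was 0.506% in testes and 0.225% in ovaries (permutation test, adjusted p = 0.0021). At -123 (54352579) it was 0.466% in testes and 0.199% in ovaries (adjusted p = 0.00129). At -45 (54352501), close to the start, it was 0.324% in testes and 0.207% in ovaries, and 16 of 20 testes were above the median of the ovaries (adjusted p = 0.0135). The sixth site called was -168 (54352624), with 0.343% in testes and 0.110% in ovaries, where all 20 testes were above the median of the ovaries (adjusted p = 0.0229). It is the site that the quasi-binomial model did not call (adjusted p = 0.108).

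The level was low from the far end to the start, and segments were described without a test. The 3 distal sites (-412 to -312) had a mean of 0.627 ± 0.353% in testes at 66 fish/L and 0.389 ± 0.232% in testes at 9 fish/L, and 0.401 ± 0.221% in ovaries at 66 fish/L and 1.03 ± 1.37% in ovaries at 9 fish/L. The 8 proximal sites (-140 to -10) had 0.461 ± 0.0800% in testes at 66 fish/L and 0.481 ± 0.130% in testes at 9 fish/L, and 0.258 ± 0.0889% in ovaries at 66 fish/L and 0.417 ± 0.423% in ovaries at 9 fish/L. The 15 sites between them (-262 to -159), which stand close together, had means between 0.422% in ovaries at 66 fish/L and 0.621% in ovaries at 9 fish/L. The wide spread of the distal means in ovaries at 9 fish/L came from single fish, since the medians of these 3 sites averaged 0.233 ± 0.177% there.

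Within testes the sites with the highest medians differed between the densities. At 66 fish/L the highest site median was 0.798%, at -105, and the lowest was 0.210%, at -140 (54352596). At 9 fish/L the highest site median was 0.751%, at -163 (54352619), followed by 0.725% at -159 (54352615), while the site between them, -161 (54352617), had 0.362%. Testes at 66 fish/L had medians of 0.399% at -163 and 0.476% at -159, and testes at 9 fish/L had 0.653% at -105. The site -262 (54352718) had the lowest mean of testes at 9 fish/L, 0.285%, and of ovaries at 66 fish/L, 0.150%. Nearest to the start, -10 (54352466) had medians of 0.347% in testes at 66 fish/L and 0.248% in testes at 9 fish/L, and of 0.259% in ovaries at 66 fish/L and 0.199% in ovaries at 9 fish/L. In ovaries site medians spanned less, 0.117 to 0.387% at 66 fish/L and 0.0855 to 0.242% at 9 fish/L.

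High values at single sites set ovaries apart from testes in size. The sites and fish in this account were chosen after their values had been seen, and no test was made of them. Values of 1% or more numbered 11 in 6 testes at 66 fish/L, 21 in 7 testes at 9 fish/L, 11 in 5 ovaries at 66 fish/L and 30 in 9 ovaries at 9 fish/L. In testes 0 values reached 3%. In ovaries 4 values in 3 fish did at 66 fish/L and 14 values in 7 fish did at 9 fish/L. The highest site of a fish held a median of 8.46% of its summed site levels in testes at 66 fish/L and 9.71% in testes at 9 fish/L, but 14.9% in ovaries at 66 fish/L and 29.9% in ovaries at 9 fish/L, where 3.85% would be an equal share.

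**Figure D4:**
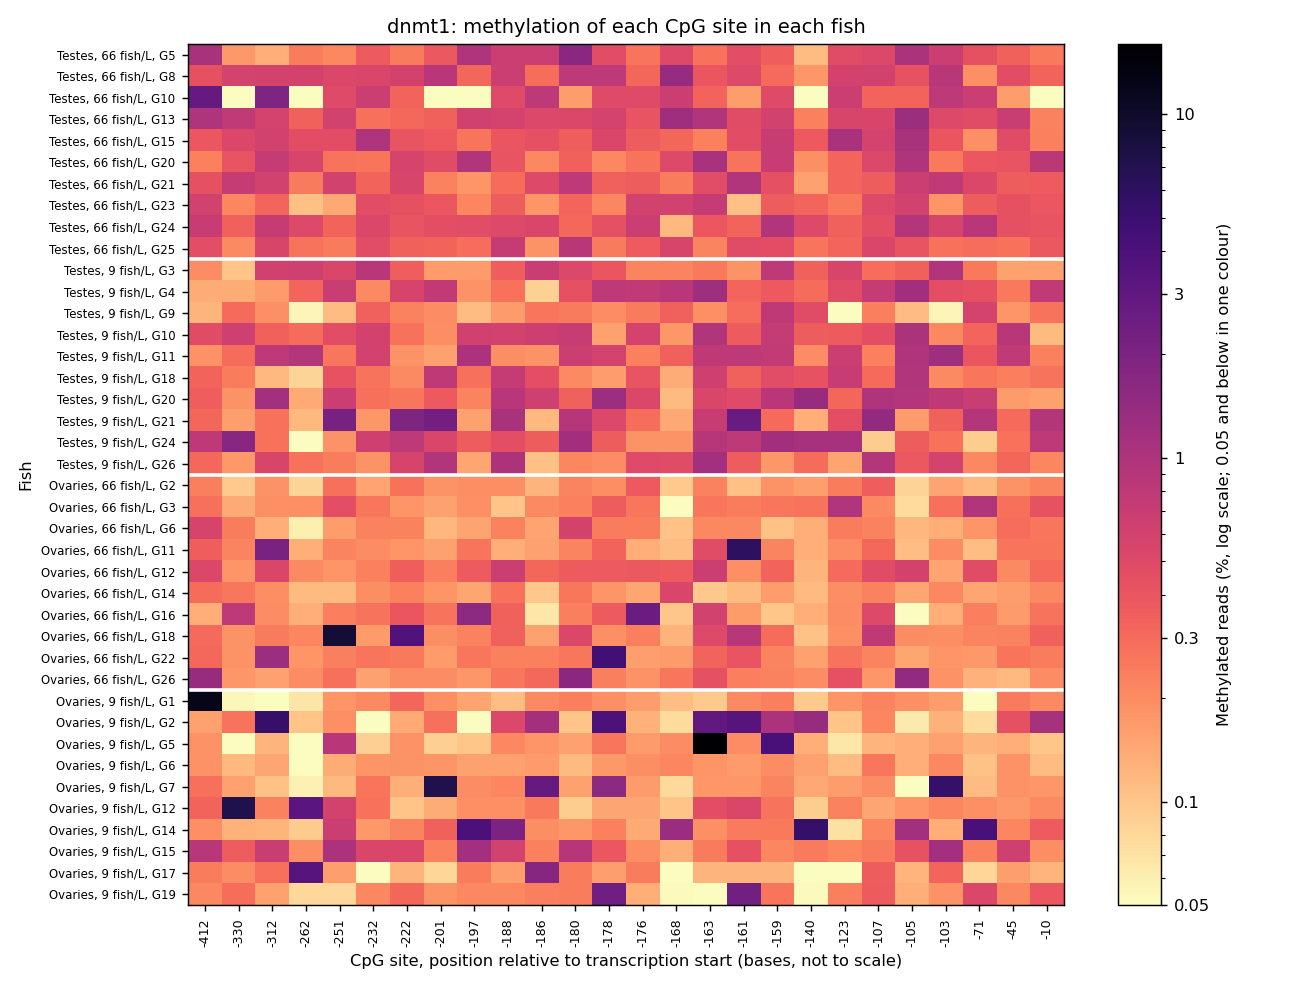
Methylation of each of the 26 CpG sites (columns, labelled by position relative to the transcription start, not to scale) in each of the 40 fish (rows, in groups of 10 separated by white lines). Colour gives the percentage of methylated reads on a logarithmic scale. Dark cells stand out in pale rows in ovaries, most of them at 9 fish/L, whereas the rows of testes are mid-toned with few dark cells.

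The highest value, 15.9% at -163 in the ovary G5 at 9 fish/L, rested on 1435 of 9042 reads (95% Wilson interval 15.1 to 16.6%). At -161, 2 bases away, the same ovary had 0.199%, while at -159 it had 4.08%. The ovary G1 at 9 fish/L had 11.98% at -412, on 876 of 7313 reads, and no other of its sites exceeded 0.315%. The highest site therefore made up 74.6% of its summed levels. Its median level was 0.185%, within the range of the other ovaries at 9 fish/L, and -412 was its only site of 1% or more.

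Other ovaries at 9 fish/L had several high sites. The ovary G7 had 7.22% at -201 and 5.49% at -103, the ovary G12 had 7.31% at -330 and 3.25% at -262, and the ovary G14 had 6 sites of 1% or more with 5.46% at -140 as the highest. The ovary G2 had 8 such sites, of which -159, -161 and -163 are neighbours 2 bases apart with 1.01, 3.45 and 2.90%. The ovary G6 had none, and its highest site was at 0.258% at a median coverage of 29041 reads.

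At 66 fish/L the highest value of an ovary was 9.02% at -251 (54352707) in the fish G18, on 2674 of 29661 reads, followed by 6.01% at -161 in G11 and 4.61% at -178 in G22. All 3 ovaries had a median level between 0.209 and 0.232%, within the range of the others. In testes the highest values were 2.77% at -412 in G10 at 66 fish/L and 2.67% at -161 in G21 at 9 fish/L. The testis G21 had 6 sites of 1% or more.

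High values at neighbouring sites were counted, without a comparison with high values placed at random among the sites of a fish. Of the 73 values of 1% or more, 11 had a value of 1% or more at the next site on either side, 5 of them in testes at 9 fish/L and 6 in ovaries at 9 fish/L. They were spread over 24 of the 26 sites, and the site with most, -105, had 7 among 40 fish. The mean level of a fish and its *dnmt1* coverage had a Spearman's rho of -0.04 in testes (permutation p = 0.861, n = 20) and 0.21 in ovaries (permutation p = 0.368, n = 20).

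Cytosines that escape conversion are read as methylated, so the values of other weakly methylated cytosines are given beside those of *dnmt1*. The listed positions of the *dnmt1* amplicon outside the 26 sites held 9 methylated of 5716 reads, 0.157% (95% Wilson interval 0.0829 to 0.299%), counting values covered by more than 5 reads. The mean of the median levels of ovaries, 0.215%, lies inside this interval, and that of testes, 0.402%, lies above it. The interval is of pooled reads, however, and a median over sites is another measure. With reads pooled over the 26 sites of a fish, ovaries averaged 0.487% and testes 0.479%, both above the interval. The interval is no measured background for either sex. Its positions are called in CpG context, so they can be methylated themselves, and its reads are pooled over both sexes. Of the 32 positions 10 lie inside the primers, where reads can show the bases of the primer rather than of the fish. The 3 low cytosines of other amplicons with a median coverage of at least 500 reads, chosen after their values were seen, had medians of 0.252% in testes and 0.289% in ovaries (*cyp11c1*, chromosome 16, 54645783), 0.348% in testes and 0.179% in ovaries (*hsd11b2*, chromosome 7, 34854935), and 0.271% in testes and 0.258% in ovaries (*hsd11b2*, 34854936). Over all fish, the median was thus higher in testes at both *hsd11b2* positions and lower in testes at the *cyp11c1* position. Only 34854935 kept this direction at both densities. At 34854936 the median at 9 fish/L was 0.237% in testes and 0.369% in ovaries. At 54645783 the median at 66 fish/L was 0.394% in testes and 0.2997% in ovaries. The *hsd11b2* positions are adjacent bases, and whether they belong to the same CpG was not examined. These differences between the sexes were not tested. The part of incomplete conversion in the *dnmt1* levels was not tested.

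The other amplicon with low methylation was *dmrt1*, the gene of a transcription factor of male gonad development, in testes. *Dnmt1* was lower still: the mean level in testes was 0.479 ± 0.103% for *dnmt1* and 2.41 ± 1.03% for *dmrt1*, lower for *dnmt1* in 20 of 20 fish (sign-flip permutation test with 100000 resamples, p = 1e-05, adjusted p = 1e-05 over 2 comparisons). In ovaries it was 0.487 ± 0.248% for *dnmt1* and 31.3 ± 7.79% for *dmrt1*, again lower in 20 of 20 fish (p = 1e-05, adjusted p = 1e-05). The *dnmt1* level of any fish, at most 0.922%, was below the lowest *dmrt1* level, 0.950%.

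No relation between *dnmt1* and another gene across fish passed the test. Within each sex the mean and the median level were set against the levels of the other 5 genes and the *dnmt1* coverage, 24 relations in all. For the mean level, the gene most like *dnmt1* by absolute Spearman's rho was *hsd17b1* in testes (rho = 0.37, permutation p = 0.109, Pearson's r = 0.22, permutation p = 0.345, r = 0.26 without the 2 fish farthest from the median, n = 20) and *cyp11c1* in ovaries (rho = 0.30, permutation p = 0.199, Pearson's r = 0.35, permutation p = 0.13, r = 0.07 without those 2 fish, n = 20). In ovaries r was -0.18 at 66 fish/L and 0.59 at 9 fish/L, and in testes it was 0.14 at 66 fish/L and 0.34 at 9 fish/L. For the median level, the gene with the largest absolute rho was *hsd11b2* in both sexes, with a rho of 0.25 in testes (permutation p = 0.284, n = 20) and -0.31 in ovaries (permutation p = 0.178, n = 20). The smallest adjusted p of the 24 relations was 0.936.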

How the data were processed

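DNA methylation of 40 gonads was analysed. Per the study's methods, the authors trimmed paired-end reads of 250 bases and discarded those with a Phred score below 20, aligned them with Bismark to the converted genome, removed duplicates and extracted calls in CpG context. The submitters' notes name Trim Galore 0.4.5, FastQC 0.11.6, Bowtie2, Bismark 16.0 and GRCz11. The methods give another Bismark version, another instrument (MiSeq, against HiSeq in the labels) and another amount of input DNA than the labels. For each fish the authors deposited, per cytosine, the percent methylation and, as whole-number counts without normalization, the methylated and unmethylated reads. The percent equals the ratio of the counts in all 7221 values. Whether these counts were made before or after the removal of duplicates was not checked.

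The CpG sites of an amplicon were taken as its deepest positions, as many as the study lists, and values covered by more than 5 reads entered. Amplicon bounds, primers and distances to the transcription start come from the study's list, since no genome of this build was used. The level of a fish is the unweighted mean, or the median, over its sites. Densities were compared within sex by exact permutation tests, sexes by 100000 resamples within density, the interaction by permuted residuals, with Benjamini-Hochberg adjustment over 6 genes or 99 sites and a threshold of 0.05. Simulated data with known changes were used to check the site tests of density and of sex. The interaction and the tests of levels were not checked in this way. The simulation had no high values in single fish like those of the ovaries. The site calls needed 6 fish per group.

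The sites named are, per comparison, the 5 with the smallest p and the one with the largest difference, per group those with the highest and lowest mean and the highest single value, and those nearest to and farthest from the start, 17 in all. For a site outside these rules the text says that its values were known. The gene most like *dnmt1* is the one whose mean level has the largest absolute Spearman's rho with the *dnmt1* mean level. The members and these rules were chosen with earlier results of these data known. As 1 gene of the DNA methylation machinery was measured, no pathway was described. Alternatives changed the coverage minimum, the cytosines, the fish, the average and the test. Coverage per site and fish, between 610 and 30018 reads, and the number of fish set the precision. Confidence intervals (95%) are Wilson intervals. Sex ratio, growth and expression were not analysed here. Tools were scipy 1.17.1, numpy 2.4.6, statsmodels 0.14.6, pandas 2.3.3 and matplotlib 3.10.9 under Python 3.11.15.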

Additional observations from a re-analysis of the deposited data

Results flagged for a closer look

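Within each group of 10 fish, the highest or lowest value was compared with the range of the group by Dixon's criterion, for both levels and for the 17 named sites. Of the 76 groups of values 27 had a fish apart. Chance flags about 1 in 20 groups, but the sites were named in part for their highest values, so the count is not to be read against that rate. The median *dnmt1* level of the ovary G12 at 66 fish/L, 0.341%, and of the ovary G15 at 9 fish/L, 0.374%, lay above the next fish of their groups at 0.248% and 0.218%.

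In testes at 66 fish/L, 5 of 17 sites had a fish apart: G20 with 0.819% at -10, G15 with 1.06% at -123, G21 with 0.943% at -161, and G10, the fish with the least coverage, with 1.96% at -312 and 2.77% at -412. In testes at 9 fish/L, 4 of 17 sites had one: G21 with 2.67% at -161 and 2.12% at -251, G4 with 0.851% at -168 and G24 with 0.814% at -412.

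In ovaries at 66 fish/L, 7 of 17 sites had a fish apart: G26 with 1.496% at -105 and 1.37% at -412, G18 with 0.787% at -107 and 9.02% at -251, G3 with 0.956% at -123, G11 with 6.01% at -161 and G16 with 2.54% at -176. In ovaries at 9 fish/L, 9 of 17 sites had one: G2 with 1.12% at -10 and 5.40% at -312, G14 with 1.16% at -105, 5.46% at -140 and 1.28% at -168, G5 with 4.08% at -159 and 15.9% at -163, G15 with 0.537% at -232 and G1 with 11.98% at -412.

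The listed cytosines of the *dnmt1* amplicon outside the 26 sites entered no main comparison, only the alternative with all listed cytosines. They held 0.157% methylated reads, above the 0.0525% that a count of 0 would allow at their 5716 reads. These reads are pooled over all fish, and 10 of the 32 positions lie inside the primers.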

How the results depend on the processing

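The median *dnmt1* level was higher in testes than in ovaries under all 7 alternatives and with each of the 40 fish left out. The differences were 0.159 to 0.197 percentage points, with an adjusted p of 1e-05 (permutation test) each time. The other coverage minimums, of at most 100 reads, could not change a *dnmt1* value, since no site had fewer than 610 reads in any fish. Keeping only sites that pass the minimum in every fish could not either. Only the use of all listed cytosines and the omission of the shallow testis G10 could change this result. The difference from *dmrt1* also kept its call in both sexes (-1.99 to -1.79 in testes and -31.7 to -29.7 in ovaries). The mean level in ovaries at 66 minus 9 fish/L kept its sign under 12 of 13 alternatives (adjusted p of 0.087 to 0.75, each by the test of its setting). Several of these could not change the sign. They were the coverage minimums, the sites passing in every fish, the omission of the testis G10 and an analysis of variance that was given the same difference. The ovary difference was 0.0416 without values of 1% or more, and the interaction of sex and density was then -0.00198. With 1 fish left out, the ovary difference was -0.285 to -0.201 and the interaction 0.202 to 0.286. The mean level in testes at 66 minus 9 fish/L was -0.0278 over all listed cytosines, -0.00225 without the testis G10 and -0.0252 to 0.0287 with 1 fish left out. Testes minus ovaries in mean level was 0.00997 over all listed cytosines, -0.0327 to 0.0137 with 1 fish left out, 0.115 without the highest site of each fish and 0.196 without values of 1% or more. Both of these last settings were chosen after seeing the data. Fisher's exact test on pooled reads called 22 sites for density in ovaries, 17 for density in testes and 23 between the sexes (12 higher and 11 lower in testes), against 0, 0 and 6. Of all 99 sites it called 87, 61 and 96 in these comparisons. The quasi-binomial model called 7 between the sexes (77 of all 99 sites), all higher in testes, without -168 (adjusted p = 0.108) of the 6. With log2(percent + 0.1) 10 sites were called between the sexes (80 of all 99), including the 6. With 1 fish left out 6 to 8 were called (75 to 79 of all 99). Code numbers occur at both densities for 4 fish per sex, but fish of one number are different animals. With a replicate block on these pairs, the mean level at 66 minus 9 fish/L was -0.397 in ovaries and -0.101 in testes and the median level 0.0322 in ovaries and -0.00280 in testes, where 4 pairs allow no p below 0.125. Deviations of same-numbered fish over the 26 sites correlated between -0.43 and 0.16 in ovaries and between -0.23 and 0.43 in testes. Over all 99 sites they correlated between -0.40 and 0.24 in ovaries and between 0.62 and 0.94 in testes, and in testes between -0.36 and 0.13 without the 6 *hsd17b1* sites. The block changed no call. Where a setting changed a sign or a call, the cause was not tested. Coverage limits single values in 2 testes with a floor above 0.2%.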
